A study of Mus musculus with 6 samples.

Results

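Immediate early response genes are transcribed within minutes of a growth factor, serum or stress signal, from factors already present in the cell and without new protein synthesis. Their promoters are bound by serum response factor (SRF) with ternary complex factors, which ERK phosphorylates, and by CREB and ATF proteins, and many of their products are transcription factors that act on later genes. The AP-1 factor is a dimer of Fos, Jun or ATF family bZIP proteins. The set described here holds 10 genes, chosen by name from the gene identifiers of a count table of 24467 genes: the AP-1 and ATF genes Jun, Junb, Fos, Fosb and Atf3, the zinc finger factor genes Klf6 and Egr1, the early response genes Ier2 and Ier3, and the phosphatase gene Dusp1. All 10 were present in the table, and 9 passed the filter on low counts and were tested. Fosb did not pass.

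RNA was measured by sequencing in mouse embryonic stem (ES) cells in 3 groups of 2 libraries. The first and second group were clone 2 and clone 1 of a double knockout (DKO) of Cbx5, which codes for HP1 alpha, and Cbx1, which codes for HP1 beta. The third was a single control clone, labelled F/F for floxed alleles and wild type for genotype. All groups grew untreated with leukaemia inhibitory factor, 3 µM of the GSK3 inhibitor CHIR99021 and 0.8 µM of the MEK inhibitor PD184352. MEK activates ERK, so an inhibitor of one main route to immediate early genes was present in every library. Each DKO clone and the control is 1 clone, so genotype and clone cannot be told apart, and no source used here states if replicate libraries were grown as separate cultures. The p-values measure the spread between these libraries, which may be technical.

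The DKO libraries held 24628872 to 27876620 counted reads and the control libraries 34641560 and 32327537. Cbx5 stood at 24.4% and Cbx1 at 20.3% of the control level in the DKO libraries, where counts may include exons outside the deletion. Cbx3, which codes for HP1 gamma, stood at 139% of control and lies on chromosome 6. The 15 ES cell markers summed to 6053 to 6431 CPM in the DKO libraries and 5983 to 6273 CPM in the control libraries. CPM are read counts scaled to library size with TMM factors. In DKO against control Nanog was higher, Tdgf1 lower and 13 of the 15 not past the test, where 8.69% of all tested genes passed. Nanog changed by a log2 of 0.33 and lies on chromosome 6, where the median shift of all tested genes was 0.48. The 17 fibroblast and feeder markers summed to 18.1 to 20.6 CPM in the DKO libraries and 24.6 to 28.3 CPM in the control libraries. Of these, 9 lay below 1 CPM in every library and Twist2 had no read in any. In bulk RNA, fewer cells of a type and less RNA per cell cannot be told apart.

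The genes are short. Their spans on the genome had a median of 3.29 kb and ran from 1.199 kb for Ier3 to 13.0 kb for Atf3, against a median of 21.9 kb for the 14755 tested genes with a position. Jun, Junb and Ier2 have 1 exon each in the principal GENCODE transcript. Ier2 and Junb lie on chromosome 8 with a gap of 314 kb between them, and Ier3 and Dusp1 share chromosome 17. The tested genes of the 8 chromosomes that carry the 10 genes had median log2 shifts of -0.05 to 0.06 in clone 1. In clone 2 their shifts were -0.03 to 0.06. None of the 10 lies on chromosome 3 or 6, where the medians were 0.29 and 0.44 in clone 1 and 0.08 and 0.51 in clone 2.

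Promoter sequence from RefSeq (GRCm38.p6) was matched for 8 of the 10 genes. Egr1 and Ier2 are named only. The 150 bases before the RefSeq start are shown for Jun, Klf6, Junb, Atf3, Fos and Dusp1, 5′ to 3′ on the strand of the gene. Capitals mark the half-site TGACG of the cyclic AMP response element, its full form TGACGTCA, the related octamer TGACATCA and the TATA box TATAAA, on either strand.
Jun: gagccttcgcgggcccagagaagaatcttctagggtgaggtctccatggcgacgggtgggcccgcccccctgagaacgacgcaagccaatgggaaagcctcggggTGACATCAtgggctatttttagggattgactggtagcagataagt
Klf6: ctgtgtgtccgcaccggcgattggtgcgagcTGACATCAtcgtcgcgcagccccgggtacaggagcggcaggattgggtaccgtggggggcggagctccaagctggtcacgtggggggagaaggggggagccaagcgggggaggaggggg
Junb: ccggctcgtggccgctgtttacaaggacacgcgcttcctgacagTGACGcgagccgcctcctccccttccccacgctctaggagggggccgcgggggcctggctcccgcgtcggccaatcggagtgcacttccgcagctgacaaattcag
Atf3: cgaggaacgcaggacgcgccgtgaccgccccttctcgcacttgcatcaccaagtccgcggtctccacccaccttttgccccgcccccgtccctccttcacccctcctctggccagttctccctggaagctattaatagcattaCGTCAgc
Fos: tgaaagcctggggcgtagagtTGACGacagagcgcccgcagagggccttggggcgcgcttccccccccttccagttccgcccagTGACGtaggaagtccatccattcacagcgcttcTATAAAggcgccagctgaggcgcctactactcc
Dusp1: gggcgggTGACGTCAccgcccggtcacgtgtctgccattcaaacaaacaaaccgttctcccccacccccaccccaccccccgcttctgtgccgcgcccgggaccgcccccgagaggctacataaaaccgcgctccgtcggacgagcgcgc
The stretches are chr4:95052223-95052372, minus strand for Jun, chr13:5861339-5861488, plus strand for Klf6, chr8:84978749-84978898, minus strand for Junb, chr1:191183334-191183483, minus strand for Atf3, chr12:85473740-85473889, plus strand for Fos and chr17:26508473-26508622, minus strand for Dusp1.

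Over the 250 bases before the start, TGACG was found in 5 of the 8 windows, those of Atf3, Fosb, Junb, Fos and Dusp1, and in 17.8% of all 32851 windows of that length. Dusp1 held the full TGACGTCA, which includes TGACG and occurs in 1.55% of all windows. The octamer TGACATCA was found in Jun, 45 to 38 bases before the start, and in Klf6, 119 to 112 bases before it, and in 2.93% of all windows. It was added to the search after the sequences had been read. The CArG box, the letters that SRF binds, was in none of the 8 windows and in 1.47% of all windows, and the AP-1 letters TGANTCA were in none of the 8 and in 6.75%. These matches describe letters in a short window and not binding.

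Per kilobase of counted width, the order of levels in the control was Ier2, Klf6, Dusp1, Junb, Jun, Egr1, Atf3, Ier3, Fos and Fosb. The control means were 27.1 CPM per kb for Ier2, 21.8 for Klf6, 10.3 for Dusp1, 6.96 for Junb, 6.35 for Jun, 3.25 for Egr1, 2.51 for Atf3, 2.15 for Ier3, 1.78 for Fos and 0.0561 for Fosb. The control ranges of neighbours in this order did not overlap, although those of Ier3 and Fos came within 2.03 and 2.02 CPM per kb of each other.

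In the 4 DKO libraries, from 2 clones, more neighbours overlapped than in the 2 libraries of the control clone. Klf6 ranged from 11.6 to 19.5 CPM per kb and Dusp1 from 11.8 to 12.7. Junb ranged from 4.86 to 6.10 and Jun from 4.28 to 6.22 CPM per kb, but these 2 genes overlapped in neither clone alone. In clone 1 Jun (6.13 to 6.22) lay above Junb (5.71 to 6.10). In clone 2 Jun (4.28 to 4.37) lay below Junb (4.86 to 5.24). Atf3 (1.36 to 2.37) and Ier3 (1.70 to 2.44 CPM per kb) also overlapped over the 4 libraries. In clone 2 alone the mean per-length level of Dusp1 was 12.2 CPM per kb and that of Klf6 12.1, a difference within the spread of the libraries. Fosb, at a DKO mean of 0.0584 CPM per kb, stood far below all the others.

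**Figure D1:**
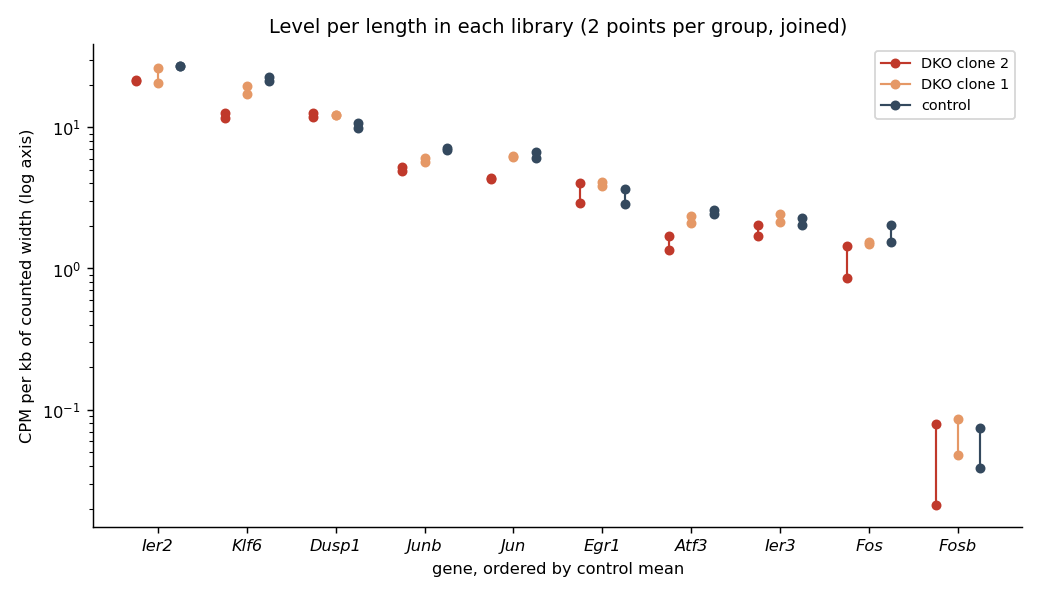
CPM per kilobase of counted width on a log axis for the 10 genes, ordered by the control mean, with 2 library values per group joined by a line (DKO clone 2, DKO clone 1, control). Ier2 is highest at 27.1 CPM per kb in the control and Fosb lowest at 0.0561.

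The main comparison asked which genes differ between the 4 DKO libraries and the 2 control libraries. None of the 9 tested genes passed edgeR's quasi-likelihood test at an adjusted p under 0.05, where 8.69% of the 14771 tested genes did. At an unadjusted p under 0.05 there were 4 of the 9, where 3433 of the 14771 tested genes were. Among the 4, Klf6, Junb and Ier2 were lower and Dusp1 was higher. DESeq2 called 1 gene (Klf6) and limma-voom 0. Of the 9 log2 changes 7 were negative and 2 positive, with a median of -0.28, where the median of all tested genes was 0.0004. All DKO libraries lay below both control libraries for Klf6, Junb, Ier2 and Atf3, 4 of 9 genes against 16.9% of all tested genes. They lay above both for Dusp1, 1 of 9 against 16.9%.

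The spread between the clones was part of the DKO variance in this comparison. Klf6 averaged 66.8 ± 16.5 CPM in the DKO libraries (SD, n = 4) and 95.9 ± 4.19 CPM in the control (SD, n = 2), with a log2 change of -0.52 (SE 0.174, edgeR adjusted p = 0.0987). Within the clones its SD was 3.24 CPM in clone 2 and 7.61 CPM in clone 1. Klf6 passed in DESeq2 (adjusted p = 0.0221), without a filter on low counts (0.0297 in edgeR) and without clone 1 replicate 2 (0.0211 in edgeR). In an edgeR fit with 3 groups, which keeps the difference between the clones out of the error, 4 genes fell in the mean of the clones: Klf6 (adjusted p = 0.000141), Jun (0.0408), Junb (0.0408) and Ier2 (0.0463). In that fit 17.8% of all tested genes passed and 8.46% were lower.

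The clones were therefore compared with the control one by one, in a fit with 3 groups. In clone 2, 5 of the 9 genes fell (Klf6, Jun, Atf3, Junb and Ier2) and none rose. Among all tested genes 15.0% passed in that comparison, 7.08% lower and 7.89% higher. In clone 1 none of the 9 passed in edgeR, DESeq2 or limma-voom, where 15.3% of all tested genes did in edgeR. An edgeR unadjusted p under 0.05 was reached by 2 of the 9 (Klf6 and Dusp1), and by 4270 of the 14771 tested genes. The median log2 change of the 9 genes was -0.46 in clone 2 and -0.17 in clone 1, with medians of -0.0009 and -0.0055 over all tested genes. These comparisons share the control libraries. Clone 2 set directly against clone 1 gave lower levels of Klf6 and Jun, 2 of 9 genes, where 6.3% of all tested genes passed and 3.77% were lower. Of those 9 changes 8 were negative and 1 positive.

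Counted by libraries alone, both clone 2 libraries lay below both control libraries for 7 of the 9 genes (28.4% of all tested genes) and above them for 1, Dusp1 (28.4%). Both clone 1 libraries lay below the control for 4 genes (28.0%) and above it for 2, Egr1 and Dusp1 (27.5%). Clone 2 lay wholly below clone 1 for 6 genes (25.7%) and wholly above it for 0 (25.5%).

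**Figure D2:**
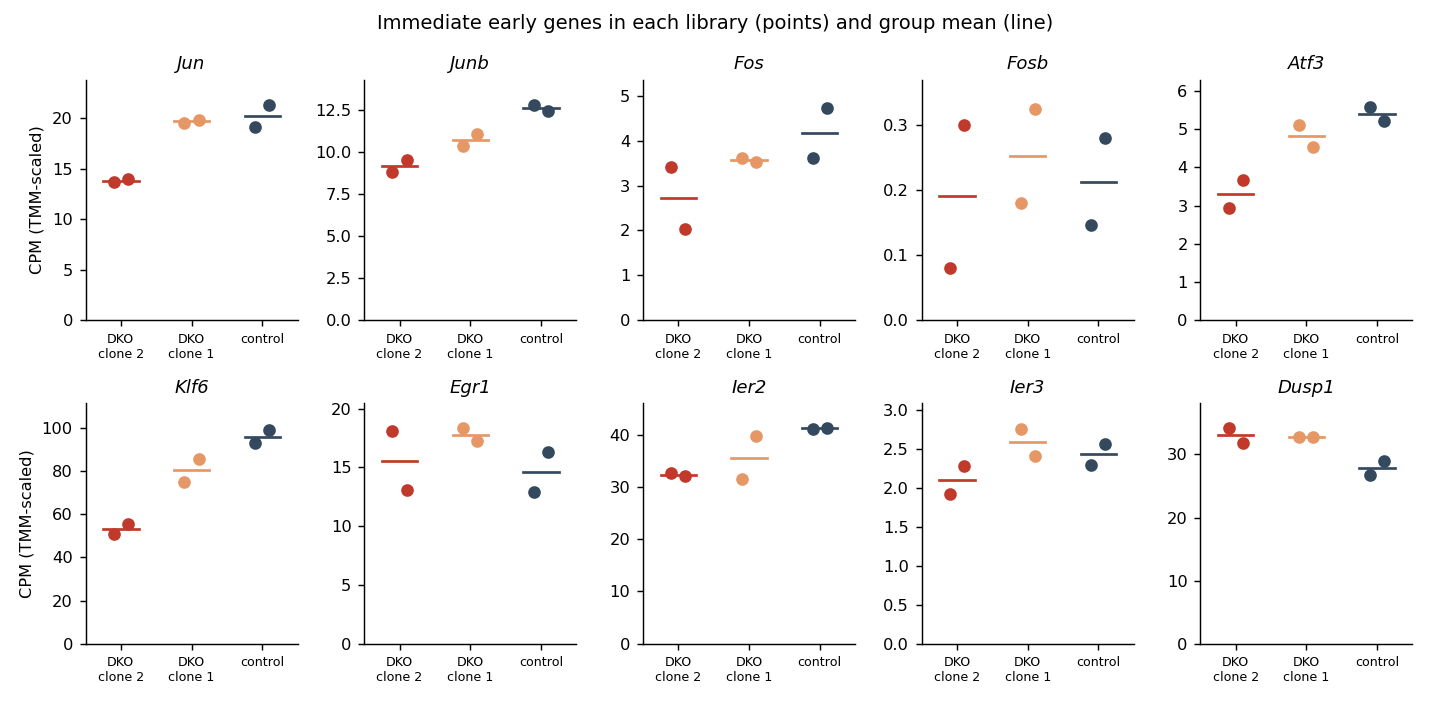
TMM-scaled CPM (vertical axes, from 0) of the 10 genes in each library (points) with the group mean (line), for DKO clone 2, DKO clone 1 and control. Klf6 runs from 50.9 CPM in a clone 2 library to 98.8 CPM in a control library, and the clone 2 libraries are lowest for Jun, at 13.6 and 13.9 CPM.

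Klf6 (Entrez 23849, GRCm38 chromosome 13, 5861489 to 5870393), a Krüppel-like zinc finger transcription factor, had the largest change of the 9 in clone 2 against control. It had 50.9 and 55.5 CPM in clone 2, 75.1 and 85.8 CPM in clone 1, and 92.9 and 98.8 CPM in the control. The 3 groups did not overlap, with clone 2 lowest and clone 1 between. The log2 change was -0.85 (SE 0.0850, edgeR adjusted p = 2.9e-05) in clone 2 against control and -0.60 (SE 0.0854, edgeR adjusted p = 0.00144) in clone 2 against clone 1. In clone 1 against control it was -0.25 (SE 0.0835, edgeR adjusted p = 0.0582). That last value was 0.0371 with replicate number as a block, 0.0345 without clone 1 replicate 2, 0.0243 without a filter and 0.0494 with a filter of 1 CPM in 2 libraries, the 4 of 14 alternatives in which it passed. The change was -0.16 without clone 1 replicate 1 (edgeR adjusted p = 0.397) and -0.20 without control replicate 2 (edgeR adjusted p = 0.239). Both clone 2 calls held under all 14 alternatives, at adjusted p up to 0.00107 against control and 0.0298 against clone 1.

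Jun (Entrez 16476, chromosome 4, 95049036 to 95052222), the founding AP-1 subunit, followed a different course. It had 13.6 and 13.9 CPM in clone 2, 19.6 and 19.8 CPM in clone 1, and 19.2 and 21.3 CPM in the control. Clone 2 lay apart from the others, while the clone 1 libraries fell within the control range. The log2 change was -0.55 (SE 0.109, edgeR adjusted p = 0.00374) in clone 2 against control and -0.51 (SE 0.110, edgeR adjusted p = 0.0153) in clone 2 against clone 1, but -0.04 (SE 0.106, edgeR adjusted p = 0.856) in clone 1 against control. The difference between the clones had an edgeR adjusted p of 0.0580 and 0.0548 without clone 1 replicate 1 and 2, and 0.108 and 0.0956 without clone 2 replicate 1 and 2, at log2 changes of -0.50 to -0.53. The antisense gene Junos overlaps Jun on the opposite strand, and the strand setting of the counts is unknown here, so their reads cannot be told apart.

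Junb (Entrez 16477, chromosome 8, 84976909 to 84978748), an AP-1 subunit that can oppose Jun, had 8.79 and 9.49 CPM in clone 2, 10.3 and 11.03 CPM in clone 1, and 12.8 and 12.4 CPM in the control. The 3 groups did not overlap and kept the same order as for Klf6. Its log2 change was -0.46 (SE 0.128, edgeR adjusted p = 0.0278) in clone 2 and -0.24 (SE 0.126, edgeR adjusted p = 0.238) in clone 1 against control. The call in clone 2 ended without any 1 of the control or clone 2 libraries, at edgeR adjusted p of 0.113 and 0.0825 without control replicate 1 and 2 and of 0.166 and 0.0872 without clone 2 replicate 1 and 2. The clones differed by -0.22 (SE 0.130, edgeR adjusted p = 0.362).

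Atf3 (Entrez 11910, chromosome 1, 191170296 to 191183333), a stress-induced member of the ATF family, had 2.93 and 3.67 CPM in clone 2, 5.10 and 4.53 CPM in clone 1, and 5.59 and 5.20 CPM in the control. Clone 2 was again lowest, and clone 1 came close below the control. Its log2 change was -0.71 (SE 0.187, edgeR adjusted p = 0.0217) in clone 2 against control and -0.54 (SE 0.191, edgeR adjusted p = 0.122) against clone 1. The clone 2 call ended at an edgeR adjusted p of 0.0999 and 0.0629 without control replicate 1 and 2, and of 0.165 without clone 2 replicate 1. Its reads numbered 73 and 98 in clone 2, 142 and 126 in clone 1, and 192 and 168 in the control.

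Fos (Entrez 14281, chromosome 12, 85473890 to 85477274), the AP-1 subunit that pairs with Jun, had 3.41 and 2.02 CPM in clone 2, 3.63 and 3.52 CPM in clone 1, and 3.61 and 4.74 CPM in the control. Clone 2 replicate 2 was the lowest library, and the clone 1 and control values overlapped. The log2 change in clone 2 against control was -0.62 (SE 0.250, edgeR adjusted p = 0.116). It was -1.04 without clone 2 replicate 1, with an edgeR adjusted p of 0.0409, and -0.63 without a filter, with 0.0341. It was -0.29 without clone 2 replicate 2 (edgeR adjusted p = 0.587) and -0.41 without control replicate 2 (edgeR adjusted p = 0.453). Fosb had 2 and 8 reads in clone 2, 5 and 9 in clone 1, and 5 and 9 in the control, counts too few for a comparison.

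Ier2 (Entrez 15936, chromosome 8, 84661331 to 84662852), an early response gene that serum induces, had 32.6 and 32.1 CPM in clone 2, 31.5 and 39.7 CPM in clone 1, and 41.2 and 41.3 CPM in the control. Every DKO library lay below the control, and the clone 1 libraries spanned those of clone 2. Its log2 change was -0.35 (SE 0.106, edgeR adjusted p = 0.0407) in clone 2 and -0.21 (SE 0.105, edgeR adjusted p = 0.202) in clone 1 against control. The clone 2 call ended with library size in place of TMM (0.0503), without chromosomes 3, 6 and Y (0.0620), without control replicate 1 (0.114) or 2 (0.126) and without clone 2 replicate 1 (0.143) or 2 (0.181), all edgeR adjusted p. The change in clone 1 was -0.39 without clone 1 replicate 2 (edgeR adjusted p = 0.0348) and -0.054 without clone 1 replicate 1 (edgeR adjusted p = 0.835).

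Egr1, Ier3 and Dusp1 passed in none of the 4 comparisons in edgeR. Egr1 (Entrez 13653, chromosome 18), a zinc finger factor that responds to ERK, had 18.1 and 13.1 CPM in clone 2, 18.3 and 17.3 CPM in clone 1, and 12.9 and 16.3 CPM in the control. The clone 2 range took in the control mean, and both clone 1 libraries were above the control. Its log2 changes against control were 0.09 (SE 0.156, edgeR adjusted p = 0.746) in clone 2 and 0.29 (SE 0.154, edgeR adjusted p = 0.241) in clone 1.

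Ier3 (Entrez 15937, chromosome 17, 35821713 to 35822911), a regulator of cell death, had 1.93 and 2.29 CPM in clone 2, 2.76 and 2.41 CPM in clone 1, and 2.30 and 2.57 CPM in the control. Both clone 2 libraries lay below those of clone 1 and of the control, the nearest at 2.29 against 2.30 CPM. The edgeR adjusted p against control was 0.625 in clone 2 and 0.851 in clone 1. Dusp1 (Entrez 19252, chromosome 17, 26505591 to 26508472), a phosphatase that inactivates MAP kinases, had 34.2 and 31.8 CPM in clone 2, 32.8 and 32.7 CPM in clone 1, and 26.8 and 28.9 CPM in the control. All DKO libraries were above the control and the clones overlapped. Its log2 change was 0.25 (SE 0.0915, edgeR adjusted p = 0.0903) in clone 2 and 0.24 (SE 0.0912, edgeR adjusted p = 0.102) in clone 1.

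**Figure D3:**
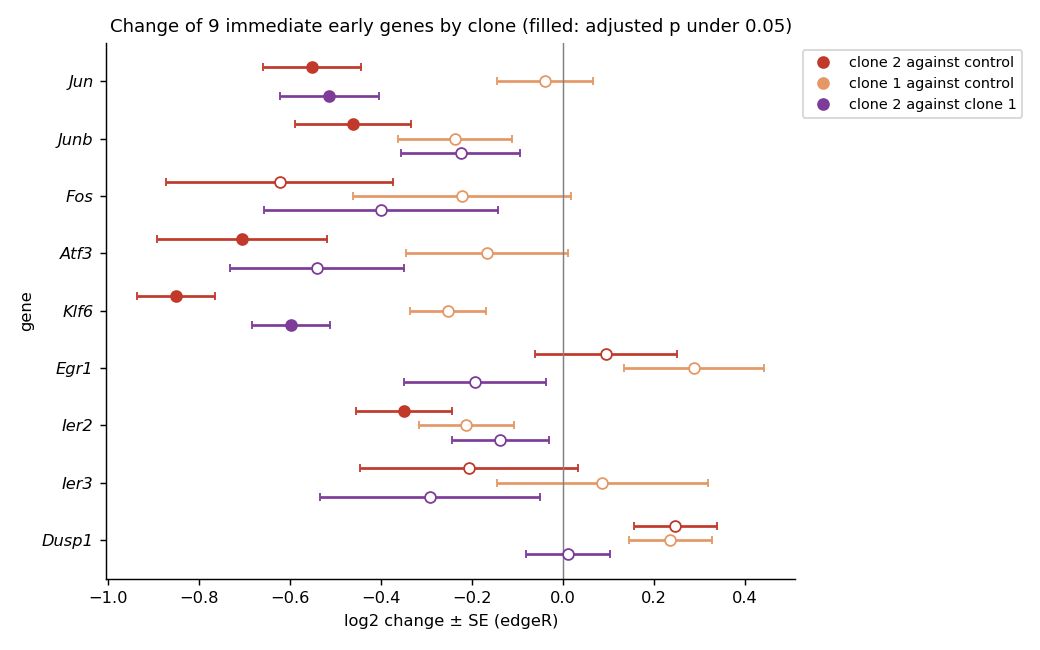
Log2 change with its standard error (horizontal axis) for the 9 tested genes in clone 2 against control, clone 1 against control and clone 2 against clone 1, with filled points for an edgeR adjusted p under 0.05. Filled points for clone 2 against control are Klf6, Jun, Atf3, Junb and Ier2, and clone 1 has none.

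The mean profile of the 9 genes, each centred on its own mean log2 CPM, was -0.19 and -0.25 in clone 2, 0.07 and 0.09 in clone 1 and 0.08 and 0.19 in the control. Jun (root mean square distance 0.0917), Junb (0.0973), Ier3 (0.119) and Ier2 (0.125) came closest to it, and Dusp1 (0.246) and Egr1 (0.231) were farthest. Among 2247 other genes with at least 10 CPM and as wide a spread, those with the most similar profile over the 6 libraries were Stim1 (distance 0.0349), Ntn1 (0.0395), Armh3 (0.0409), Mdm2 (0.0417) and Rev1 (0.0418). Mdm2, the ubiquitin ligase of p53, averaged 201 CPM in clone 2, 259 CPM in clone 1 and 262 CPM in the control. Stim1, a calcium sensor of the endoplasmic reticulum, averaged 8.40 CPM in clone 2, 10.6 CPM in clone 1 and 11.3 CPM in the control. This is a description of likeness, without a test.

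A second list of 60 immediate early genes outside the set was examined, of which 54 were tested. In clone 2 against clone 1, 13 of the 54 fell and 1 rose, where 3.77% of all tested genes fell and 2.53% rose, with a median log2 change of -0.13. The rule for named genes gave Plk2, Ccn1, Phlda1 and Btg2. Plk2, a polo-like kinase, averaged 58.1 ± 3.75 CPM in clone 2 and 90.8 ± 0.809 CPM in clone 1 (SD, n = 2 each), a log2 change of -0.65 (edgeR adjusted p = 0.000378). Ccn1, a matricellular protein, averaged 77.3 ± 2.39 CPM in clone 2 and 116 ± 4.02 CPM in clone 1 (SD, n = 2 each), a change of -0.59 (edgeR adjusted p = 0.00042). Ccn1 lies on chromosome 3, where the median shift of all tested genes was -0.18 in this comparison. Phlda1 changed by -0.69 (edgeR adjusted p = 0.0028) and the antiproliferative gene Btg2 by -0.58 (edgeR adjusted p = 0.00309). The calls of these 4 genes held under every alternative that tested them. The gene that rose, named after its value was seen, was the kinase gene Sgk1, with 260 ± 3.68 CPM in clone 2 and 204 ± 6.25 CPM in clone 1 (SD, n = 2 each).

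Set against the control, clone 2 had 12 lower and 3 higher genes of the 54, at a median log2 change of -0.17, where 7.08% of all tested genes fell and 7.89% rose. Clone 1 had 4 lower and 7 higher, at a median of 0.02, where 6.47% of all tested genes fell and 8.79% rose. Over all 4 DKO libraries 2 genes fell and 3 rose, where 3.62% and 5.06% of all tested genes did. The genes that fell were Rhob, a small GTPase, at 17.4 ± 1.17 CPM in DKO and 26.9 ± 0.460 CPM in control (SD, n = 4 and 2; edgeR adjusted p = 0.00322), and the AP-1 gene Fosl2, at 1.06 ± 0.0919 and 2.09 ± 0.198 CPM in DKO and control (edgeR adjusted p = 0.0333). The growth arrest genes Gadd45a (edgeR adjusted p = 0.00136) and Gadd45b (edgeR adjusted p = 0.0341) rose, and so did Sgk1 (edgeR adjusted p = 0.0384).

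Gadd45a lies on chromosome 6 and averaged 49.1 ± 2.43 CPM in DKO and 30.8 ± 0.0342 CPM in control (SD, n = 4 and 2). Without control replicate 1 and 2 the edgeR adjusted p was 0.0573 and 0.0561 for Rhob, 0.149 and 0.243 for Fosl2, 0.193 and 0.219 for Gadd45b and 0.265 and 0.201 for Sgk1. Without a DKO library it was 0.0543 to 0.0681 for Fosl2, whichever library was left out. It was 0.0713 for Gadd45b without clone 1 replicate 2 and 0.0832 without clone 2 replicate 1. For Sgk1 it was 0.0659 and 0.0609 without clone 2 replicate 1 and 2. Fosl2 had an adjusted p of 0.0504 in DESeq2. With counts summed per clone, none of the 5 passed in edgeR, at adjusted p of 0.179 to 0.410.

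Among the regulators upstream, Srf, which codes for serum response factor, had 47.5 ± 1.12 CPM in DKO and 49.2 ± 4.41 CPM in control (SD, n = 4 and 2; edgeR adjusted p = 0.771). Of 14 genes of the SRF, ternary complex factor and CREB group 0 passed in edgeR, DESeq2 or limma-voom in DKO against control. In each tool 2 had an unadjusted p under 0.05, where 3126 to 3566 of the 14771 tested genes did. In clone 1 the CREB coactivator gene Crtc2, on chromosome 3, rose. Of 24 genes of the upstream kinase routes, 4 rose, Braf and Map2k2 among them, and 2 fell (Rps6ka3 and Rps6ka4, named after their values were seen) in DKO against control. Among all tested genes 5.06% rose and 3.62% fell in that comparison. The kinase gene Braf averaged 81.1 ± 2.46 CPM in DKO and 61.6 ± 2.05 CPM in control (SD, n = 4 and 2; edgeR adjusted p = 0.00651). It lies on chromosome 6, where the median shift of all tested genes was 0.48. Without control replicate 1 and 2 the edgeR adjusted p of Braf was 0.0629 and 0.0936. Map2k2, the gene of MEK2, lost its call in 7 of 16 alternatives, among them each control replicate left out (0.140 and 0.290 in edgeR). Between the clones 0 of the 24 passed in edgeR, DESeq2 or limma-voom, and 4 had an unadjusted p under 0.05 in edgeR, 3 in DESeq2 and 3 in limma-voom. Of the 14771 tested genes 3039 had one in edgeR, 2445 in DESeq2 and 2974 in limma-voom.

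Of 16 tested bZIP genes whose proteins pair with Fos, Jun or Atf3, 3 fell and none rose in clone 2 against clone 1 (Cebpb, Ddit3 and Jdp2). Among all tested genes 3.77% fell and 2.53% rose in that comparison. The 3 calls passed in 5 of 14 alternatives for Cebpb, 11 for Ddit3 and 9 for Jdp2. Of 17 SRF target genes of the cytoskeleton, 7 fell and 1 rose in clone 2 against control, and 4 fell and 2 rose in clone 1. Of all tested genes 7.08% fell and 7.89% rose in clone 2, and 6.47% fell and 8.79% rose in clone 1. Tagln, a smooth muscle actin-binding protein, averaged 7.51 ± 0.5001 CPM in clone 2 and 14.5 ± 1.38 CPM in clone 1 (SD, n = 2 each; edgeR adjusted p = 0.00153). The control mean of Tagln was 21.1 ± 2.45 CPM (SD, n = 2). Acta2, smooth muscle actin and also a fibroblast marker, averaged 0.948 ± 0.0913 CPM in clone 2 and 6.02 ± 1.26 CPM in control (SD, n = 2 each; edgeR adjusted p = 2.1e-05).

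Over all DKO libraries, 3 of the 17 fell (Acta2, the tropomyosin gene Tpm1 and Tagln2) and 1 rose, the actin gene Actg1 (edgeR adjusted p = 0.0481). Among all tested genes 3.62% fell and 5.06% rose in that comparison. The call of Actg1 passed in 7 of 16 alternatives. Without control replicate 1 and 2 the edgeR adjusted p was 0.0555 and 0.109 for Acta2 and 0.0528 and 0.125 for Tpm1, and for Tagln2 it was 0.142 without control replicate 2. For Actg1 these values were 0.392 and 0.0589, with replicate 1 and 2 of the control left out.

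Among markers of other cells, 2 of the 8 tested fibroblast markers fell in DKO against control (Acta2 and Twist1) and 1 rose (Fbln2, on chromosome 6). Of the 6 tested trophectoderm markers 1 fell, the keratin gene Krt8, and 0 rose. Among all tested genes 3.62% fell and 5.06% rose in that comparison. The calls passed in 13 of 16 alternatives for Acta2 and for Twist1, 12 of 16 for Krt8 and 11 of 15 for Fbln2. Of the 6 tested trophectoderm markers 1 rose and 2 fell in clone 2 against control, where 7.89% of all tested genes rose and 7.08% fell. In clone 1 against control 2 rose and 2 fell, where 8.79% of all tested genes rose and 6.47% fell. The T-box factor gene Eomes was the one that rose in clone 2, at 18.8 ± 1.51 CPM in clone 2, 10.8 ± 0.350 CPM in clone 1 and 7.79 ± 0.936 CPM in the control (SD, n = 2 each). Its edgeR adjusted p was 4.1e-05 in clone 2 against control and 0.00399 in clone 2 against clone 1. In clone 1 against control Eomes and Tfap2c rose (edgeR adjusted p = 0.0318 and 0.0127). Between the clones the rest of the list went the other way, with 5 of the 6 log2 changes negative and a median of -0.29. Tfap2c fell there by -0.46 (edgeR adjusted p = 0.0160). Heat shock genes, which stress of cells can induce, had 2 lower of 14 in clone 2 against control (Hsph1 and Bag3) and 4 lower in clone 1 (Hsp90aa1, Hsph1, Dnaja1 and Bag3), with none higher in either, where 7.08% of all tested genes were lower in clone 2 and 6.47% in clone 1. Those are edgeR counts, while DESeq2 and limma-voom each called 4 lower in clone 2 and 5 in clone 1. Of the 14771 tested genes DESeq2 and limma-voom called 885 and 1016 lower in clone 2, and 789 and 946 in clone 1. Between the clones 1 of the 14, Hspa4l, was lower in edgeR, where 3.77% of all tested genes were. It passed in 7 of 13 alternatives. The median log2 change of the 14 between the clones was 0.0018. The summed fibroblast markers were 20.6 and 19.7 CPM in clone 2, 18.1 and 19.5 CPM in clone 1, and 24.6 and 28.3 CPM in the control. The 8 primitive endoderm markers summed to 34.1 and 36.6 CPM in clone 2, 41.2 and 42.0 CPM in clone 1, and 39.3 and 41.1 CPM in the control. The part of these genes in the changes of Klf6, Jun, Junb, Atf3 and Ier2 was not tested.

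**Figure D4:**
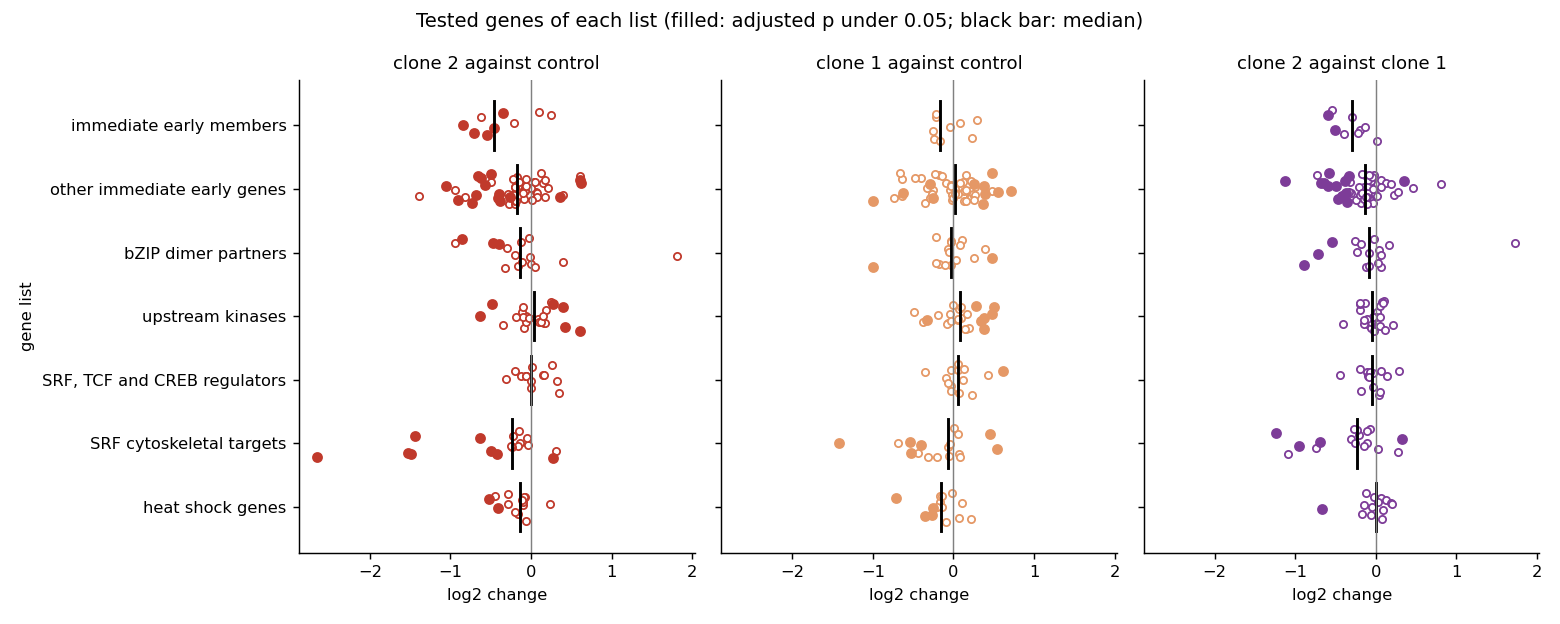
Log2 change (horizontal axis, the same scale in each panel) of every tested gene of 7 lists in clone 2 against control, clone 1 against control and clone 2 against clone 1, with filled points for an edgeR adjusted p under 0.05 and a black bar at the list median. The medians of the immediate early set are -0.46, -0.17 and -0.29 in the 3 panels, and those of the SRF, ternary complex factor and CREB regulators 0.0011, 0.06 and -0.05.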

How the data were processed

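The authors aligned reads with STAR 2.5.0a to mm10 (GRCm38), per the submitters' processing notes, and deposited unnormalised read counts by Entrez identifier, beside each gene's width in bases. Neither counting tool, annotation nor strand setting is given in the sources used here. Of 24467 IDs, 24437 were matched to RefSeq symbols. Libraries are named by clone and replicate from their titles.

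Tests on these counts used edgeR 4.0.16 under R 4.3.3 (filterByExpr with 3 groups, 14771 genes kept, TMM factors 0.992 to 1.01, quasi-likelihood F test, two-sided, Benjamini-Hochberg over all genes tested, threshold 0.05). DKO against control used genotype alone, with 4 residual degrees of freedom, and the clone comparisons a fit with 3 groups, with 3. CPM is TMM-scaled, and 1 read is worth 0.0291 to 0.0401 CPM. Standard errors come from the F statistic. The fit of DKO against control was tested on simulated data. Replicates of a group differed beyond sampling noise, most in the control (chi-square per gene 41.6, against 11.5 in clone 1 and 12.1 in clone 2).

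The 10 genes and the gene lists were chosen with earlier results of these data known, and no list was tested as a set. The rule names all 10 genes, the HP1 genes, up to 4 called genes per list in DKO against control and in clone 2 against clone 1, and the 5 genes nearest the mean profile; some of these are not reported here. Alternatives were RLE and library-size scaling, other filters, DESeq2 1.42.0, limma-voom 3.58.1, a replicate block, counts summed per clone, a fit with 3 groups, leaving out chromosomes 3, 6 and Y, and leaving out each library. Profile distances used log2(CPM + 0.5).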

Additional observations from a re-analysis of the deposited data

Results flagged for a closer look

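Of the 10 genes examined over the 4 DKO libraries, 2 had a library far from the rest. Chance gives about 1 in 20 such groups when the 4 libraries are alike. Here they come from 2 clones, and the 10 genes share the same libraries, so that rate is only a rough guide. For Fos the lowest value was 2.02 CPM in clone 2 replicate 2, against 3.41 to 3.63 CPM in the other DKO libraries. For Ier2 the highest value was 39.7 CPM in clone 1 replicate 2, against 31.5 to 32.6 CPM in the others.

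The effects of the clones against their shared control differed by the direct edgeR test for Jun, with a log2 change of -0.51 in clone 2 against clone 1, and for Klf6, with -0.60.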

How the results depend on the processing

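In DKO against control the count of 0 called among the immediate early genes was 1 without a filter, 1 in DESeq2 and 4 in the fit with 3 groups (unadjusted p under 0.05 in 4, 4 and 6 genes), and 0 to 2 with a library left out. Over all genes, an unadjusted p under 0.05 was reached by 3749 of 20190 without a filter, 3126 of 14771 in DESeq2 and 4566 of 14771 in the fit with 3 groups. Summing counts per clone (1 residual degree of freedom) gave 0 calls in edgeR, and 0 at an unadjusted p under 0.05. In clone 1 the count was 1 without a filter, 1 with a filter of 1 CPM, 1 with the replicate block and 0 to 2 with a library left out. In clone 2 against control 5 became 2 to 5, and in clone 2 against clone 1 2 became 1 to 2, with a library left out. Klf6 and Jun in clone 2 against control passed in all 14 alternatives.

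Over all genes, the 1283 calls of DKO against control were 246 to 1186 with a library left out, 2 with counts summed per clone, 655 without chromosomes 3, 6 and Y (which removes genes from the test) and 2628 in the fit with 3 groups. The 2253 calls of clone 1 were 1292 to 2051 with a library left out and 1340 without those chromosomes. The 2211 calls of clone 2 were 1123 to 2302 and 1449. The 930 between the clones were 270 to 934 with a library left out and 1453 without a filter.

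Signs turned for changes that did not pass, with a library left out. In DKO against control Ier3 ran from -0.140 to 0.0339, positive without control replicate 2 or clone 2 replicate 1. In clone 1 Jun ran from -0.109 to 0.0418 and Ier3 from -0.0156 to 0.183. Egr1 ran from -0.156 to 0.312 in clone 2 against control and from -0.444 to 0.0214 in clone 2 against clone 1. Between the clones Ier2 ran from -0.297 to 0.0384 and Dusp1 from -0.0430 to 0.0631. The cause was not tested.

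Same-numbered replicates did not deviate together over all genes (correlations of 0.0280, -0.0834 and 0.0260 between groups). This cannot show if same-numbered libraries were handled together, which no source used here states. With the replicate block the calls over all genes were 928 in DKO against control, 2229 in clone 1, 2146 in clone 2 and 889 between the clones. Fos, Ier3 and Fosb, with 139, 109 and 10 reads in clone 2, are limited by depth.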
